A study of Sus scrofa domesticus with 8 samples.

Results

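This is an account of growth factor and receptor tyrosine kinase genes in granulosa cells of the pig ovary, which form the inner wall of the follicle and nurse the oocyte, before and during 144 h of culture. The genes were taken by their symbols in the array's platform annotation: the fibroblast growth factor (FGF), platelet-derived growth factor (PDGF), vascular endothelial growth factor (VEGF), angiopoietin, ephrin and neuregulin families with their receptors, and the pair HGF and MET. Of 10707 genes with a named feature, 60 matched. They hold 34 ligand genes, 22 receptor genes and 4 genes that share only a name with these families. EGFR, PDGFRA, PDGFA and EPHA2 were not analysed here, since no feature carried their symbols.

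Receptor tyrosine kinases are cell surface proteins whose inner part adds phosphate to tyrosines when a ligand brings receptors together. The signal passes through adaptor proteins to the RAS-ERK and PI3K-AKT pathways, which steer growth, survival and movement. In the ovary, granulosa cells lie behind a basement membrane without capillaries, and VEGF that they make acts on the vessels of the theca layer around them. Ephrins differ from the other ligands in being held on the membrane, so that they act between touching cells.

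The donors were 43 young female pigs of a Landrace cross, 170 days old at the median and weighing 98 kg. Groups were cells kept for 48 h, 96 h or 144 h and cells taken at 0 h, with 2 arrays at each time and 8 in all. All cultures had DMEM with 2% fetal bovine serum, 4 mM L-glutamine and antibiotics, at 37 °C under 5% CO2, so that medium and serum were the same for every time after 0 h. The labels do not tie an array to animals or to a culture dish, and the p-values therefore cover the spread between these arrays, which can be technical. Each value is a log2 intensity made by the authors with robust multi-array averaging (RMA), and the number of arrays limits its precision.

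The array medians lay between 4.52 and 4.63, and paired arrays of the same time correlated at 0.985 (144 h) to 0.997 (96 h). The lower quartile of an array, between 3.13 and 3.25, serves here as a mark of low signal, since no detection call was used. Of the 60 genes, 38 lay above it on every array and 5 below it on every array. Differences to or from such a level are printed as measured and with no fold. Of 14 granulosa markers listed, 8 were measured. Their mean log2 levels were 9.02 and 9.07 at 0 h and 7.34 and 7.41 at 48 h. The levels were 5.79 and 5.73 at 96 h and 5.75 and 5.95 at 144 h. Of the 8, 7 were lower at 144 h than at 0 h. All 6 measured oocyte markers were lower at 48 h than at 0 h, with mean levels of 3.80 and 3.70 at 48 h and 5.86 and 5.67 at 0 h. Of 7 measured leukocyte markers, 2 were higher and 2 lower at 144 h. Among all named genes, 18.1% were higher and 15.8% lower at 48 h against 0 h. At 144 h against 0 h, 19.2% were higher and 17.6% lower. The shifts of these markers run beside the differences described below, and their part in them was not tested. In such bulk samples, fewer cells of a type and less RNA per cell cannot be told apart.

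Growth factor and receptor genes moved in both directions. The largest rises were those of the ligand gene VEGFC and the receptor genes FGFR2, MET, PDGFRB and EPHA4. The largest falls were those of the ligand genes VEGFD, ANGPT1, ANGPT2 and EFNB2 and the receptor genes ERBB4 and EPHA7. By limma's moderated F test over the 4 times, 35 of the 60 genes changed, or 58.3%, where 51.8% of all named genes did. These 35 were 19 of 34 ligand genes, 14 of 22 receptor genes and 2 of the 4 matched by name only.

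**Figure D1:**
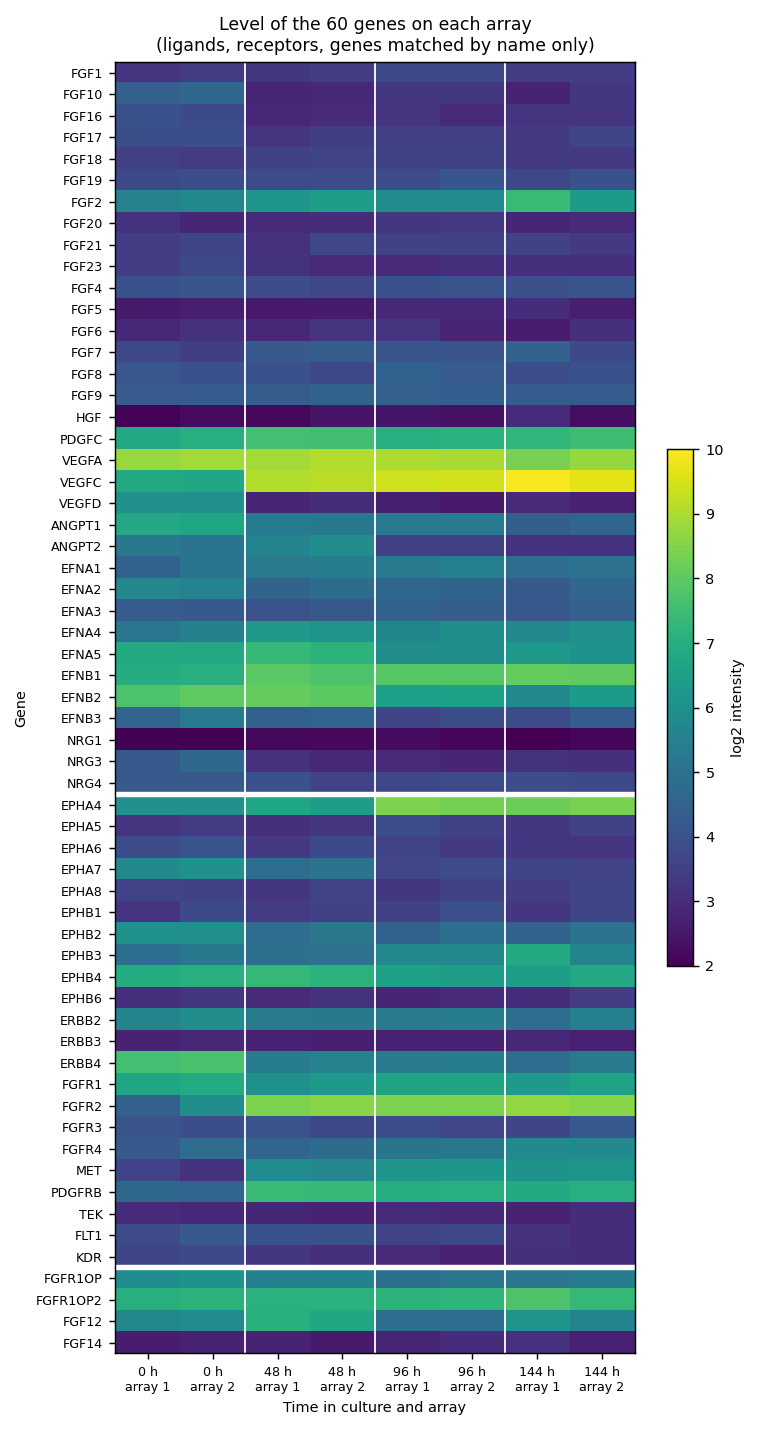
Log2 intensity (colour) of the 60 genes (rows) on each of the 8 arrays (columns, by time in culture), with ligand genes at the top, receptor genes in the middle and the 4 genes matched by name only at the bottom. VEGFA is bright on every array, VEGFC brightens and VEGFD darkens after 0 h, and FGFR2 stands at 4.44 and 5.96 on the 0 h arrays and above 8 on all later ones.

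At 48 h against 0 h, 6 ligand genes were higher and 8 lower, and 4 receptor genes were higher and 5 lower. All comparisons with 0 h share the same 0 h arrays. Among all named genes, 18.1% were higher and 15.8% lower in that comparison. At 96 h against 0 h, 5 ligand genes were higher and 12 lower, and 5 receptor genes were higher and 6 lower, beside 21.5% higher and 23.4% lower among named genes. Over all 60 genes that is 10 higher and 20 lower, or 13 and 17 after median centring. At 144 h against 0 h, 5 ligand genes were higher and 11 lower, and 6 receptor genes were higher and 6 lower, beside 19.2% and 17.6%. The share of ligand genes that were lower was thus 35.3% at 96 h and 32.4% at 144 h, above the share of named genes on these arrays. The share that were higher was 14.7% at both times, or 5 of 34 genes, which is near the share of named genes. These shares are a description with no test. The median log2 difference at 144 h against 0 h was -0.11 over ligand genes, -0.03 over receptor genes, -0.03 over named genes and -0.05 over all 27558 features.

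Later steps held fewer calls. At 96 h against 48 h, 2 ligand genes were higher and 4 lower, and 2 receptor genes were higher and 2 lower, beside 14.3% and 17.0% of named genes. At 144 h against 96 h, 1 ligand gene was higher and 1 lower, and 1 receptor gene was higher and 1 lower, beside 13.0% and 10.1%. At 144 h against 48 h, 1 ligand gene was higher and 4 lower, and 2 receptor genes were higher and 3 lower, beside 5.53% and 4.89%. Of the 60 genes, 12, 5 and 11 were called in these 3 comparisons. The 5 at 144 h against 96 h were 3 higher and 2 lower, but 1 higher and 5 lower after median centring, with 3 genes called in both, and 2 higher and 2 lower after quantile normalization. The 12 became 6 to 7 without a 48 h or 96 h array and 20 without a 144 h array, the 5 became 1 without a 96 h array, 3 without a 48 h array and 11 without 144 h replicate 2, and the 11 became 5 without 48 h replicate 1 and 19 without 144 h replicate 2.

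**Figure D2:**
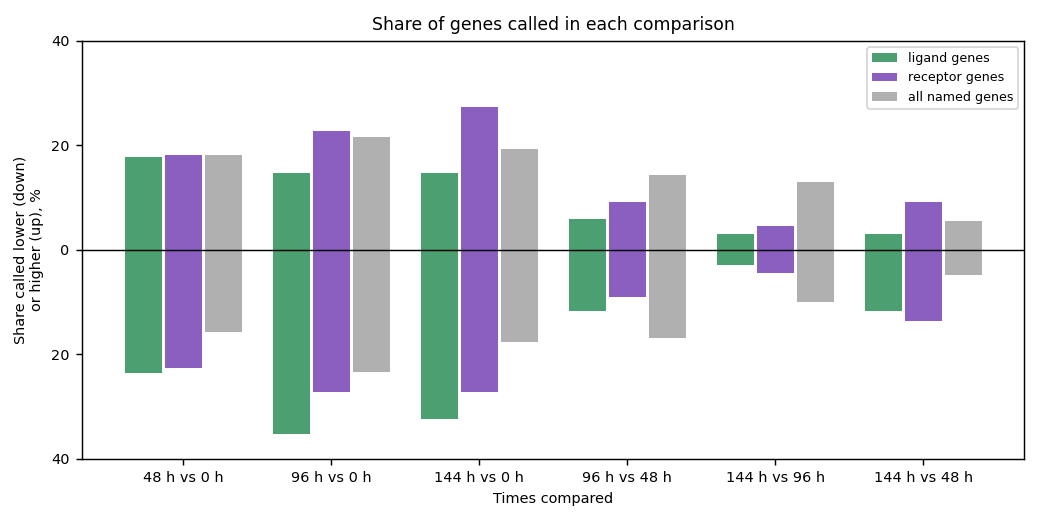
Share of ligand genes (34, green), receptor genes (22, purple) and all named genes (10707, grey) called higher (upward bars) or lower (downward bars) in each of the 6 comparisons of times, in percent. At 144 h against 0 h the downward bar of ligand genes reaches 32.4%, against 17.6% for named genes.

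Of the 35 genes called over the 4 times, 17 had their highest mean at 0 h, which is 48.6% of them, beside 36.7% of the 5550 named genes so called. A highest mean at 48 h was found for 8 genes (22.9%, beside 18.4%), at 96 h for 4 genes (11.4%, beside 27.5%) and at 144 h for 6 genes (17.1%, beside 17.4%). This is a description with no test.

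The VEGF ligand genes parted ways in culture. VEGFC and VEGFD encode closely related ligands that are known for the growth of lymphatic vessels, and VEGFA encodes the main ligand for blood vessel growth. VEGFC had log2 levels of 6.87 and 6.79 at 0 h, 9.07 and 9.18 at 48 h, 9.42 and 9.50 at 96 h, and 9.93 and 9.66 at 144 h. All 6 later arrays lay above both 0 h arrays, and both 144 h arrays above all others. The difference was 2.29 ± 0.13 at 48 h and 2.96 ± 0.13 at 144 h against 0 h (SE, n = 2 arrays per time, adjusted p = 8.37e-06 and 1.47e-06), the latest being a 7.81-fold rise. A further difference of 0.67 ± 0.13 at 144 h against 48 h (adjusted p = 0.0151) was lost without either 48 h array, at 0.62 and 0.72.

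VEGFD had log2 levels of 6.04 and 6.05 at 0 h, 2.85 and 3.02 at 48 h, 2.70 and 2.57 at 96 h, and 2.94 and 2.75 at 144 h. All later arrays lay below the lower quartile and far below the 0 h arrays. It fell by 3.11 on the log2 scale at 48 h and by 3.20 at 144 h against 0 h (SE 0.12 each, adjusted p = 2.03e-06 and 9.08e-07). VEGFA lay well above the lower quartile throughout, with 8.76 and 8.90 at 0 h, 8.90 and 9.08 at 48 h, 9.03 and 8.96 at 96 h, and 8.34 and 8.73 at 144 h. Its 144 h arrays were the lowest, yet the difference of -0.29 ± 0.15 against 0 h did not pass (adjusted p = 0.192), though it did without 144 h replicate 2, at -0.49. Another feature, annotated with the symbols VEGFA and VEGF, pointed the other way, with 0.56 ± 0.15 at 144 h against 0 h (adjusted p = 0.0205). The direction of VEGFA is therefore not settled by these features.

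Both angiopoietin genes ended below their starting levels, on different schedules. ANGPT1 encodes the activating ligand of the receptor TEK, and ANGPT2 a context-dependent antagonist that loosens vessels. ANGPT1 had log2 levels of 6.84 and 6.73 at 0 h, 5.30 and 5.23 at 48 h, 5.31 and 5.29 at 96 h, and 4.41 and 4.62 at 144 h. The fall came in steps, with the 48 h and 96 h arrays together and the 144 h arrays below them. It fell by 1.52 on the log2 scale at 48 h and by 2.27 at 144 h against 0 h (SE 0.12 each, adjusted p = 4.63e-05 and 3.89e-06), and by 0.79 at 144 h against 96 h (adjusted p = 0.00278).

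ANGPT2 had log2 levels of 5.20 and 5.08 at 0 h, 5.60 and 5.91 at 48 h, 3.51 and 3.52 at 96 h, and 3.17 and 3.16 at 144 h. The 48 h arrays were the highest and the 144 h arrays lay near the lower quartile, with no overlap between any of the times. The difference was 0.61 ± 0.13 at 48 h against 0 h (adjusted p = 0.00865), a call lost without 0 h replicate 2 (0.55) or 48 h replicate 2 (0.46). It was -2.24 ± 0.13 at 96 h against 48 h (adjusted p = 2.85e-05) and -1.98 ± 0.13 at 144 h against 0 h (adjusted p = 1.34e-05).

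**Figure D3:**
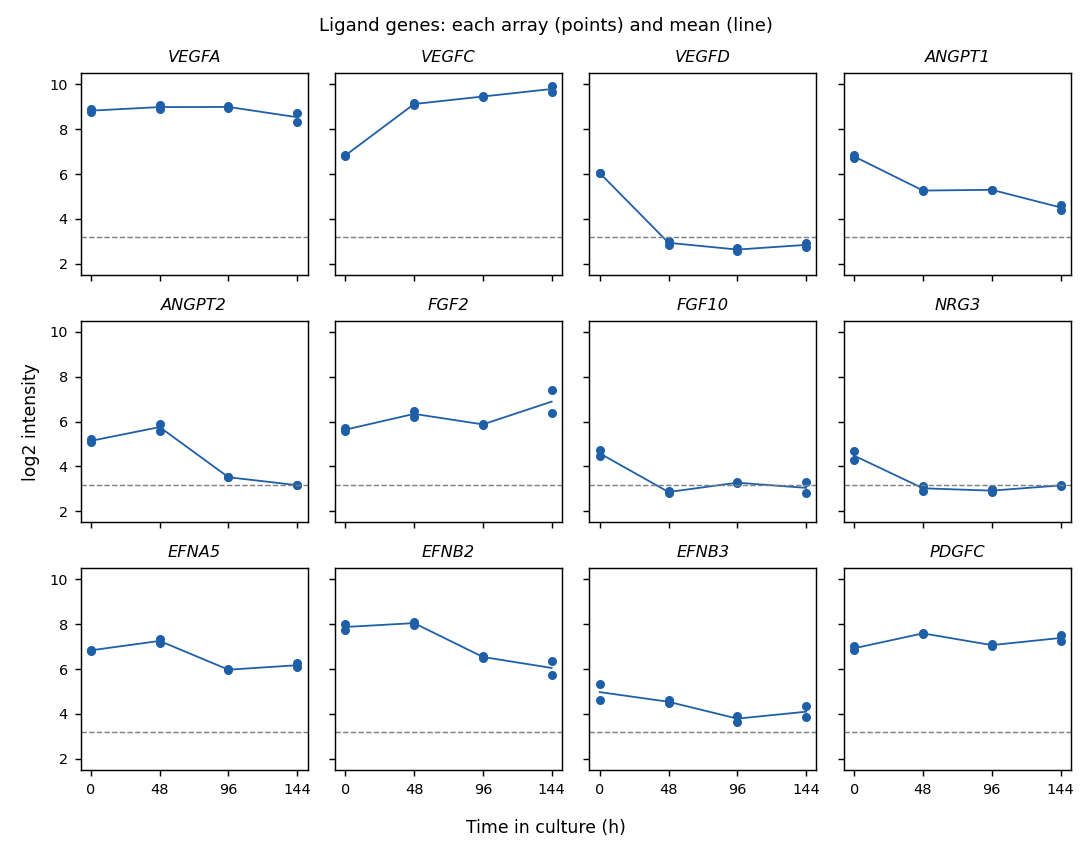
Log2 intensity of 12 ligand genes against time in culture (h), with a point for each array, a line through the means of 2 arrays and a dashed line at the average lower quartile of the arrays. VEGFC climbs to 9.93 and 9.66 at 144 h, VEGFD drops below the dashed line from 48 h on, and ANGPT2, EFNA5 and EFNB2 drop between 48 h and 96 h.

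Most of the 16 FGF ligand genes had time means below the array medians. FGF1, FGF4, FGF5, FGF6, FGF7, FGF8, FGF9, FGF16, FGF17, FGF18, FGF19, FGF20, FGF21 and FGF23 had time means between 2.57 and 4.44. At 144 h against 0 h, 1 of the 16 was higher and 3 were lower, the second count being near the 17.6% of named genes that were lower (19.2% were higher). FGF2, a mitogen for many cell types, had log2 levels above the lower quartile on all arrays, with 5.56 and 5.72 at 0 h, 6.22 and 6.47 at 48 h, 5.89 and 5.86 at 96 h, and 7.42 and 6.37 at 144 h. All later arrays lay above the 0 h arrays, and the 144 h arrays were far apart. Its difference at 144 h against 0 h was 1.25 ± 0.29 (adjusted p = 0.0117), or 0.73 without 144 h replicate 1, and the call was lost without 0 h replicate 1, at 1.17. At 144 h against 96 h it was 1.02 ± 0.29 (adjusted p = 0.0399), or 0.49 without 144 h replicate 1 and 1.54 without 144 h replicate 2, and it was lost after median centring (0.98) and on leaving out any array of 0 h, 48 h or 96 h, at 1.00 to 1.03.

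FGF10, a ligand known as a signal from mesenchyme to epithelium, had log2 levels of 4.45 and 4.71 at 0 h, 2.83 and 2.89 at 48 h, 3.26 and 3.29 at 96 h, and 2.80 and 3.29 at 144 h. The later arrays lay near or below the lower quartile, and the 0 h arrays clearly above it. It differed by -1.72 ± 0.17 at 48 h and -1.54 ± 0.17 at 144 h against 0 h (adjusted p = 0.000169 and 0.000247). FGF16 and FGF23, of which FGF23 is known as a bone-derived hormone of phosphate balance, also fell at 144 h. The falls were 0.71 and 0.50 on the log2 scale (adjusted p = 0.00444 and 0.0203), from 0 h levels below the array medians. FGF17 passed at 48 h, with -0.56 ± 0.14 (adjusted p = 0.0201), and FGF1 at 96 h, with 0.45 ± 0.12 against 0 h (adjusted p = 0.0163). FGF8 was higher at 96 h than at 48 h by 0.53 ± 0.14 (adjusted p = 0.0218). FGF7, also known as keratinocyte growth factor, had a difference of 0.67 ± 0.23 at 48 h against 0 h that did not pass (adjusted p = 0.0587), and its other 2 features stayed below 3.

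PDGFC, the measured PDGF ligand gene, had log2 levels of 6.84 and 7.02 at 0 h, 7.62 and 7.56 at 48 h, 7.04 and 7.10 at 96 h, and 7.27 and 7.50 at 144 h. The 48 h arrays were the highest, and those of 96 h lay just above the 0 h arrays. The difference was 0.66 ± 0.13 at 48 h and 0.46 ± 0.13 at 144 h against 0 h (adjusted p = 0.0049 and 0.0243), and -0.52 ± 0.13 at 96 h against 48 h (adjusted p = 0.0158). HGF, hepatocyte growth factor and the ligand of MET, lay below the lower quartile on all arrays, between 2.09 at 0 h and 3.0 at 144 h. Its difference at 144 h against 0 h, 0.50 ± 0.21, did not pass (adjusted p = 0.121), although it did without 144 h replicate 2, at 0.84.

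Among 8 ephrin genes, 2 were higher and 4 lower at 144 h against 0 h, beside 19.2% higher and 17.6% lower among named genes. EFNB1, which encodes a ligand of EPHB receptors, was higher from 48 h on, with 6.94 and 7.03 at 0 h, 7.95 and 7.77 at 48 h, 7.94 and 7.88 at 96 h, and 8.12 and 8.03 at 144 h. Its 3 later times lay above 0 h without overlap, by 0.87 ± 0.11 at 48 h and 1.09 ± 0.11 at 144 h (adjusted p = 0.000767 and 0.000177). EFNA4 was higher too, by 0.91 ± 0.18 at 48 h and 0.55 ± 0.18 at 144 h (adjusted p = 0.00553 and 0.0462). EFNA1 passed at 96 h against 0 h, with 0.58 ± 0.20 (adjusted p = 0.046), and its 0 h arrays lay apart, at 4.47 and 5.11. Over the 4 times EFNA1 was not called (F test, adjusted p = 0.0888). EFNA3 passed in no comparison.

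EFNB2, whose product marks arterial vessels, had log2 levels of 7.74 and 8.02 at 0 h, 8.11 and 7.99 at 48 h, 6.50 and 6.58 at 96 h, and 5.73 and 6.37 at 144 h. The first pair of times overlapped, and the last pair lay below them on every array. The difference was 0.17 ± 0.21 at 48 h (adjusted p = 0.592) and -1.83 ± 0.21 at 144 h against 0 h (adjusted p = 0.000259), and -1.51 ± 0.21 at 96 h against 48 h (adjusted p = 0.00115). EFNA5 followed a like course, with 6.85 and 6.83 at 0 h, 7.35 and 7.17 at 48 h, 5.96 and 5.99 at 96 h, and 6.28 and 6.07 at 144 h. It peaked at 48 h and lay below its 0 h level afterwards. It fell by 1.28 on the log2 scale at 96 h against 48 h (adjusted p = 0.000202) and by 0.66 at 144 h against 0 h (adjusted p = 0.00363). The difference of 0.42 ± 0.12 at 48 h (adjusted p = 0.0328) was lost without either 0 h array, without 48 h replicate 1, without a 96 h array and after quantile normalization, at 0.33 to 0.43.

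EFNB3 had log2 levels of 4.61 and 5.34 at 0 h, 4.48 and 4.60 at 48 h, 3.66 and 3.92 at 96 h, and 3.86 and 4.34 at 144 h. The 0 h arrays were far apart, and both lay above all others. It differed by -1.18 ± 0.25 at 96 h and -0.87 ± 0.25 at 144 h against 0 h (adjusted p = 0.00584 and 0.0307). The 144 h call was lost without 0 h replicate 2 (-0.51), without 144 h replicate 1 (-0.63), without either 48 h array and in a fit to the 4 arrays compared. EFNA2 fell by 0.93 at 48 h and by 1.18 at 144 h against 0 h (adjusted p = 0.00327 and 0.000793).

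The neuregulin genes, whose products are ligands of the ERBB receptors, had time means below the array medians. NRG4 lay above the lower quartile on every array. NRG3 had log2 levels of 4.26 and 4.69 at 0 h, 3.14 and 2.91 at 48 h, 2.98 and 2.86 at 96 h, and 3.18 and 3.12 at 144 h. Its 0 h arrays stood above all others, which were at or below the lower quartile. The difference was -1.46 ± 0.16 at 48 h and -1.33 ± 0.16 at 144 h against 0 h (adjusted p = 0.000299 and 0.000391). NRG4 passed at 96 h only, with -0.43 ± 0.15 against 0 h (adjusted p = 0.045). Over the 4 times NRG4 was not called (F test, adjusted p = 0.0981). NRG1 lay below the lower quartile on all 8 arrays, between 1.90 and 2.26, and passed in no comparison.

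Among the receptor genes, FGFR2 rose by 48 h and stayed high. It encodes a receptor whose splice forms bind different FGFs. FGFR2 had log2 levels of 4.44 and 5.96 at 0 h, 8.44 and 8.57 at 48 h, 8.41 and 8.45 at 96 h, and 8.71 and 8.59 at 144 h. The later arrays lay close together and far above the 0 h arrays, which were themselves far apart. FGFR2 was higher by 3.30 ± 0.40 at 48 h and 3.45 ± 0.40 at 144 h against 0 h (adjusted p = 0.000468 and 0.000291), and by 2.54 to 4.06 at 48 h and 2.69 to 4.21 at 144 h when a 0 h array was left out. Its other feature gave 3.81 at 48 h and 4.11 at 144 h.

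The other FGF receptor genes did not share this course. FGFR1 was level by comparison, with 6.72 and 6.93 at 0 h, 6.0 and 6.33 at 48 h, 6.61 and 6.68 at 96 h, and 6.29 and 6.60 at 144 h. All later arrays lay below both 0 h arrays, and the 48 h and 144 h arrays overlapped. The difference at 48 h against 0 h was -0.66 ± 0.16 (adjusted p = 0.0163), lost without 0 h replicate 2 (-0.55) or 48 h replicate 1 (-0.50), and at 144 h it was -0.38 ± 0.16 (adjusted p = 0.116), a value called with the replicate number as a block or without 144 h replicate 2 (-0.54).

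FGFR4, best known as the receptor for FGF19 in liver, had log2 levels of 4.24 and 4.86 at 0 h, 4.61 and 4.82 at 48 h, 5.12 and 5.20 at 96 h, and 5.77 and 5.83 at 144 h. The 0 h and 48 h arrays overlapped, and the 144 h arrays were the highest. It was higher by 1.25 ± 0.19 at 144 h against 0 h and by 1.09 ± 0.19 at 144 h against 48 h (adjusted p = 0.00153 and 0.0118), where the call against 48 h was lost without 48 h replicate 1, at 0.98. Its steps at 96 h against 0 h (0.61 ± 0.19, adjusted p = 0.0371) and at 144 h against 96 h (0.65 ± 0.19, adjusted p = 0.0485) were lost under several alternatives. At 96 h against 0 h, these were leaving out 0 h replicate 1 (0.29) or any 48 h or 96 h array. FGFR3 passed in no comparison.

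PDGFRB, the receptor gene for PDGF-B and a marker of pericytes and stromal cells, had log2 levels of 4.68 and 4.62 at 0 h, 7.38 and 7.32 at 48 h, 6.99 and 7.02 at 96 h, and 6.89 and 7.05 at 144 h. All later arrays lay far above both 0 h arrays, and the 48 h arrays were the highest. It was higher by 2.69 ± 0.11 at 48 h and 2.32 ± 0.11 at 144 h against 0 h (adjusted p = 2.22e-06 and 2.51e-06). Of 10 pericyte and smooth muscle markers, 7 were measured, and 3 (CSPG4, ACTA2 and CNN1) were higher and 2 (RGS5 and KCNJ8) lower at 144 h, with mean log2 levels of 6.50 and 6.60 at 144 h and 5.13 and 5.24 at 0 h. Of 9 theca and stroma markers, 6 were measured, and 2 (DCN and LUM) were higher and 1 (INSL3) lower, with mean levels of 6.35 and 6.49 at 144 h and 4.86 and 4.88 at 0 h. The median difference at 144 h against 0 h was 0.47 over the pericyte and smooth muscle list and 0.06 over the theca and stroma list. The rise of the theca and stroma mean was thus not shared by most of its measured genes. Among all named genes, 19.2% were higher and 17.6% lower at 144 h against 0 h. The pericyte gene ABCC9 and the theca gene CYP17A1 lay below the lower quartile on all 8 arrays. The part of these cell types in the rise of PDGFRB was not tested.

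MET, the receptor gene for hepatocyte growth factor, had log2 levels of 3.61 and 3.17 at 0 h, 5.90 and 5.69 at 48 h, 6.17 and 6.19 at 96 h, and 6.07 and 6.15 at 144 h. The 0 h arrays lay around the lower quartile and all later arrays well above it. The difference was 2.41 ± 0.16 at 48 h and 2.72 ± 0.16 at 144 h against 0 h (adjusted p = 1.93e-05 and 6.98e-06). The receptor gene was therefore measured well above the lower quartile from 48 h on, while that of its ligand HGF was below it throughout.

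**Figure D4:**
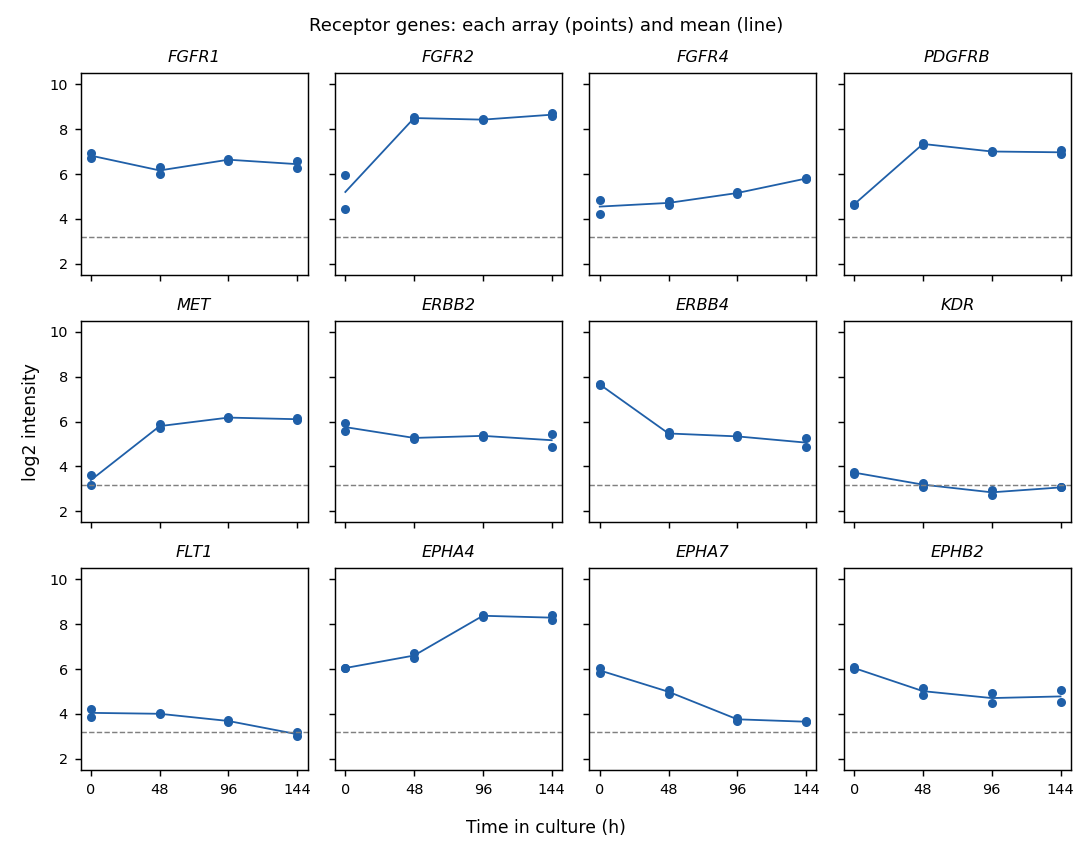
Log2 intensity of 12 receptor genes against time in culture (h), with a point for each array, a line through the means of 2 arrays and a dashed line at the average lower quartile of the arrays. FGFR2, PDGFRB and MET are higher from 48 h on, EPHA4 climbs most between 48 h and 96 h, and ERBB4, EPHA7 and EPHB2 are lower.

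KDR, FLT1 and TEK, receptor genes of VEGF and angiopoietins, had time means below the array medians at all times. KDR, which encodes the main signalling receptor for VEGFA on endothelium, had log2 levels of 3.68 and 3.77 at 0 h, 3.27 and 3.10 at 48 h, 2.94 and 2.74 at 96 h, and 3.07 and 3.06 at 144 h. All later arrays lay below the 0 h arrays and near or below the lower quartile. It differed by -0.54 ± 0.12 at 48 h and -0.66 ± 0.12 at 144 h against 0 h (adjusted p = 0.0116 and 0.00374), and the 48 h call was lost without 0 h replicate 2 (-0.49) or 48 h replicate 2 (-0.45). Its other feature, with time means from 2.24 to 2.37, passed in no comparison with 0 h, at 0.01 to 0.13.

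FLT1, whose product binds VEGFA and can trap it in a soluble form, had log2 levels of 3.86 and 4.23 at 0 h, 4.03 and 3.98 at 48 h, 3.65 and 3.72 at 96 h, and 3.17 and 3.02 at 144 h. The 144 h arrays were the lowest and lay at the lower quartile. It fell by 0.95 at 144 h against 0 h (SE 0.14, adjusted p = 0.00127). TEK lay below the lower quartile on all 8 arrays, between 2.77 and 3.05, and passed in no comparison. Of 12 endothelial markers, 5 were measured, with mean log2 levels of 4.14 and 4.39 at 144 h and 4.13 and 4.14 at 0 h. The adhesion gene PECAM1 was higher at 144 h than at 0 h by 1.14 ± 0.15 (adjusted p = 0.00055), and the other 4, VWF among them with -0.14 ± 0.15 (adjusted p = 0.531), did not pass. Of all named genes, 19.2% were higher and 17.6% lower in that comparison. The part of endothelial cells in the KDR and FLT1 values was not tested.

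Among the ERBB receptor genes, ERBB4 fell. Its product binds neuregulins and some EGF-like ligands. It had log2 levels of 7.62 and 7.70 at 0 h, 5.40 and 5.54 at 48 h, 5.29 and 5.39 at 96 h, and 4.86 and 5.26 at 144 h. Both 0 h arrays lay far above all others. The fall was 2.19 on the log2 scale at 48 h (a difference of -2.19 ± 0.15) and reached -2.60 ± 0.15 at 144 h against 0 h (adjusted p = 2.23e-05 and 6.29e-06), or -1.35 and -1.61 by its other feature. ERBB2, the ERBB partner with no ligand of its own, had log2 levels of 5.58 and 5.93 at 0 h, 5.30 and 5.24 at 48 h, 5.33 and 5.40 at 96 h, and 4.88 and 5.46 at 144 h. All later arrays lay below both 0 h arrays, but the difference at 144 h, -0.58 ± 0.20, did not pass (adjusted p = 0.0578). It did with dim features left out, with the replicate number as a block and without 144 h replicate 2 (-0.88). ERBB3, a receptor with a nearly inactive kinase, lay below the lower quartile on all 8 arrays, between 2.70 and 2.92, and passed in no comparison.

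Of 10 EPH receptor genes, whose products bind ephrins on neighbouring cells, 2 were higher and 3 lower at 144 h against 0 h, where the shares of named genes were 19.2% and 17.6%. EPHA4, which binds ephrins of both the A and the B kind, had log2 levels of 6.06 and 6.03 at 0 h, 6.72 and 6.49 at 48 h, 8.42 and 8.34 at 96 h, and 8.19 and 8.40 at 144 h. Most of the rise lay between 48 h and 96 h. It was higher by 1.77 ± 0.13 at 96 h against 48 h and by 2.25 ± 0.13 at 144 h against 0 h (adjusted p = 6.62e-05 and 6.49e-06), or 2.09 by its other feature at 144 h. The smaller difference at 48 h against 0 h, 0.56 ± 0.13 (adjusted p = 0.0127), was lost without either 0 h array (0.57 and 0.55) or 48 h replicate 1 (0.44). At 144 h against 96 h, EPHA4 differed by -0.08 ± 0.13 (adjusted p = 0.704), but by -0.49 ± 0.14 (adjusted p = 0.0432) in its other feature.

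EPHA7 ran the other way, with 5.82 and 6.06 at 0 h, 4.89 and 5.09 at 48 h, 3.69 and 3.83 at 96 h, and 3.67 and 3.64 at 144 h. Each step down to 96 h was without overlap. The difference was -0.95 ± 0.13 at 48 h against 0 h, -1.23 ± 0.13 at 96 h against 48 h and -2.29 ± 0.13 at 144 h against 0 h (adjusted p = 0.000978, 0.000367 and 6.6e-06). EPHB2 had 6.09 and 6.01 at 0 h, 4.85 and 5.18 at 48 h, 4.49 and 4.92 at 96 h, and 4.51 and 5.05 at 144 h. Its later times overlapped with each other and lay below 0 h. It differed by -1.03 ± 0.21 at 48 h and -1.27 ± 0.21 at 144 h against 0 h (adjusted p = 0.00786 and 0.00245), and the 48 h call was lost without 0 h replicate 1 (-0.99) or 48 h replicate 1 (-0.87).

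EPHB3 had log2 levels of 4.93 and 5.24 at 0 h, 4.95 and 5.03 at 48 h, 5.72 and 5.71 at 96 h, and 6.89 and 5.61 at 144 h. The 144 h arrays were far apart, and only replicate 1 stood above the 96 h arrays. Its difference at 144 h against 0 h was 1.16 ± 0.35 (adjusted p = 0.0339). It was 0.52 without 144 h replicate 1 and 1.80 without 144 h replicate 2, and the call was lost without any of the 6 arrays of the other times. EPHA6 was lower against 0 h at 96 h, by -0.50 ± 0.17, and at 144 h, by -0.74 ± 0.17 (adjusted p = 0.0455 and 0.0108). EPHB4, the receptor of EFNB2 known from veins, was lower at 96 h than at 48 h, by -0.70 ± 0.15 (adjusted p = 0.00887). It was also lower at 96 h against 0 h (-0.45 ± 0.15) and at 144 h against 48 h (-0.59 ± 0.15), with adjusted p = 0.0398 and 0.0454. EPHA5 was higher at 96 h than at 48 h, by 0.57 ± 0.16 (adjusted p = 0.0285). Over the 4 times EPHA5 was not called (F test, adjusted p = 0.0719). EPHA8, EPHB1 and EPHB6, the last a receptor with an inactive kinase, passed in no comparison.

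**Figure D5:**
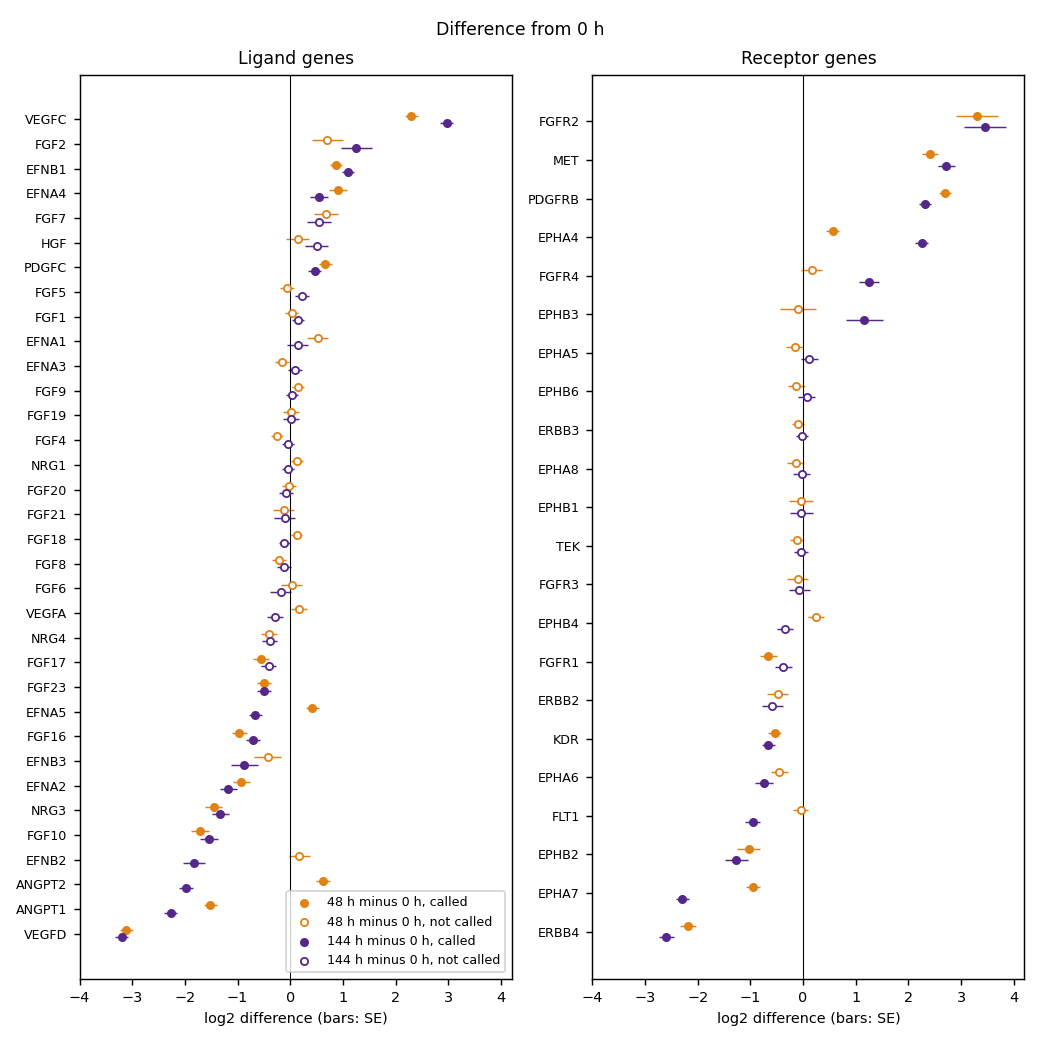
Log2 difference from 0 h of each ligand gene (left) and receptor gene (right) at 48 h (orange) and 144 h (violet), with bars for the SE and filled points for an adjusted p below 0.05, in order of the 144 h difference. VEGFC and VEGFD stand at the ends of the ligand genes, with 2.96 and -3.20 at 144 h, and FGFR2 and ERBB4 at those of the receptor genes, with 3.45 and -2.60.

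Other genes of these pathways were listed by symbol. Of 6 measured EGF-family ligand genes outside the 60, none was higher and 2 were lower at 144 h against 0 h, beside 19.2% higher and 17.6% lower among named genes. BTC, the betacellulin gene, differed by -1.83 ± 0.31 and TGFA by -0.71 ± 0.19 (adjusted p = 0.00253 and 0.0198), although TGFA was higher at 48 h, by 0.88 ± 0.19 (adjusted p = 0.00835). BTC was lowest at 48 h, with -2.88 ± 0.31 against 0 h (adjusted p = 0.000262). It was then higher at 96 h than at 48 h, by 1.29 ± 0.31 (adjusted p = 0.0161). The 144 h arrays of BTC were far apart, at 4.49 and 3.34. AREG and EREG, known as ovulatory signals of granulosa cells, lay below the lower quartile on all 8 arrays. Among 9 co-receptor and related genes, 5 were higher and none lower at 144 h, beside 19.2% and 17.6% of named genes, and the median difference was 0.84. The largest were the heparan sulfate proteoglycan genes SDC4 (2.30 ± 0.12), SDC1 (1.44 ± 0.23) and SDC2 (1.16 ± 0.13), with adjusted p = 4.83e-06, 0.00172 and 0.000297. NRP1, a co-receptor of VEGF, was higher by 0.87 ± 0.13 (adjusted p = 0.00114). FLT4, the main receptor gene for VEGFC and VEGFD, had time means between 3.86 and 4.22 and passed neither at 48 h nor at 144 h against 0 h.

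Of 15 other receptor tyrosine kinase genes, 5 were higher and 3 lower at 144 h against 0 h, where 19.2% of named genes were higher and 17.6% lower. ROR2, a receptor for WNT5A, was higher by 3.80 ± 0.23, the neurotrophin receptor gene NTRK3 by 3.20 ± 0.10 and the pseudokinase gene PTK7 by 3.15 ± 0.13 (adjusted p = 7.99e-06, 4.37e-07 and 1.27e-06). NTRK3 had time means of 4.56 at 0 h and 4.11 at 48 h, but 8.23 at 96 h and 7.75 at 144 h, so that its rise, like most of that of EPHA4, lay between 48 h and 96 h. KIT, the receptor gene for stem cell factor, was lower by -1.77 ± 0.17 (adjusted p = 9.06e-05).

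Of 9 measured genes of adaptors and the RAS-ERK relay, 2 were higher and 1 lower at 144 h against 0 h, which is near the 19.2% and 17.6% of named genes. PIK3R1, a regulatory subunit of PI3 kinase, differed by -0.78 ± 0.15, GAB2 by 0.53 ± 0.15 and GRB2 by 0.40 ± 0.12 (adjusted p = 0.00487, 0.0259 and 0.0316). Of 17 measured feedback inhibitors and ERK target genes, 12 were higher and 3 (LRIG3, CBL and EGR1) lower, and the median difference was 1.08, beside 19.2% and 17.6% of named genes. The leucine-rich membrane protein genes FLRT2 and FLRT3, which are FGF receptor partners, were higher by 3.91 ± 0.15 and 2.71 ± 0.16 (adjusted p = 8.99e-07 and 7.2e-06). The ERK phosphatase gene DUSP4 was higher by 2.33 ± 0.36 and the RAS-ERK inhibitor gene SPRED1 by 2.16 ± 0.18 (adjusted p = 0.00139 and 5.44e-05). EGR1, an immediate early target of ERK that was chosen after its value was seen, differed by -1.91 ± 0.32 (adjusted p = 0.00236), so the list held movement both ways.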

How the data were processed

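The deposited table holds log2 intensities of 27558 features on 8 arrays, which the authors made with RMA, as the submitters' processing notes name it. RMA corrects background, gives arrays a common distribution and summarises probes, so that a shift of most transcripts at the same time would be hidden. The sources used here do not give its software or settings.

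All features and arrays entered 1 linear model with a mean for each time, fitted by limma 3.58.1 (R 4.3.3, lmFit and eBayes), with 4 residual and 3.98 prior degrees of freedom. The 6 pairs of times were compared by the moderated test, two-sided, and all 4 times by the moderated F test. Benjamini-Hochberg adjustment ran over the 27558 features, with a threshold of 0.05. The steps were tested on simulated data.

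Gene names came from GEO's platform annotation, of an old date in places, and only from features with 1 symbol. The feature with the highest mean stood for a gene, and 6 of the 60 genes had several. No filter on level was applied, and 40 genes would pass one at the 40th percentile on 2 arrays. Full values are given for up to 10 ligand and 14 receptor genes called over the 4 times with a range of time means of at least 1, and for a set chosen by role. PDGFC, EFNB1 and FGF12 were added after their values were seen, as were the cell type markers named. Of each pathway list, the up to 4 genes with the largest difference at 144 h are named, and FLT4 and EGR1 were added after their values were seen. Genes and lists were chosen with earlier results of these data known.

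Deviations of same-numbered arrays of different times correlated between -0.04 and 0.19, so the number was not taken to pair them. No label gives a batch, so batch and time cannot be told apart. Alternatives were other normalizations, a filter on dim features, eBayes with trend and robust, fewer arrays, the block, other thresholds and other features of a gene.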

Additional observations from a re-analysis of the deposited data

How the results depend on the processing

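The counts of called genes among the 60 were 25 at 48 h, 30 at 96 h and 30 at 144 h against 0 h, 12 at 96 h against 48 h, 5 at 144 h against 96 h, 11 at 144 h against 48 h and 35 over the 4 times. Median centring, quantile normalization, cyclic loess, eBayes with trend and robust, dim features left out, the replicate block, other features and omission of the 96 h arrays each kept every total they gave within 1.5 times. The direction of the calls was less steady at 144 h against 96 h, where 3 higher and 2 lower became 1 higher and 5 lower after median centring and 2 higher and 3 lower by eBayes with trend and robust. With the replicate number as a block the counts, in the order above, were 27, 29, 31, 14, 5, 10 and 34. Same-numbered arrays did not all deviate together, so no pairing is read from this. A fold of at least 2 left 11, 15 and 19 genes against 0 h, and 6, 1 and 7 in the later comparisons. An adjusted p below 0.01 left 7 at 96 h against 48 h, 2 at 144 h against 96 h and 7 at 144 h against 48 h. A fit to the 4 arrays compared gave 24 at 96 h against 48 h and 7 at 144 h against 48 h, and the cause was not tested. Leaving out an array gave 18 to 28, 22 to 35, 25 to 36, 6 to 20, 1 to 11, 5 to 19 and 25 to 40. The later comparisons therefore rest most on single arrays. Of 73 called single differences tried, 49 stayed called under every alternative other than another feature of the gene. These 73 belong to the genes given in full by the rules above. Single calls of other genes, such as EFNA1, EFNA4, EFNB1, PDGFC, FGF1, FGF8, FGF17, NRG4, EPHA5 and FGF12, were not tried in this way. The sign turned only with another feature: for KDR at 48 h (0.013), 96 h (0.096) and 144 h (0.13), and for VEGFA at 144 h (0.56), all against 0 h. The signal of KDR, TEK, HGF, NRG1 and ERBB3 lay near or below the lower quartile, which limits what can be read from them.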

Other observations

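The 4 genes matched by name only were kept out of the ligand and receptor counts. FGF12 and FGF14 encode intracellular proteins related to FGFs that are known to bind sodium channels, and FGFR1OP and FGFR1OP2 are named for fusions with FGFR1 in blood cancers. FGF12 had log2 levels of 5.72 and 5.86 at 0 h, 7.06 and 6.78 at 48 h, 4.86 and 4.86 at 96 h, and 6.13 and 5.59 at 144 h. It rose and fell from time to time, with the 48 h arrays highest and the 96 h arrays lowest. It differed by 1.13 ± 0.19 at 48 h against 0 h, -2.06 ± 0.19 at 96 h against 48 h and 1.00 ± 0.19 at 144 h against 96 h (limma, adjusted p = 0.00247, 0.000165 and 0.00723). FGFR1OP was lower at 144 h than at 0 h by -0.69 ± 0.13 (adjusted p = 0.00442) and FGFR1OP2 was higher by 0.47 ± 0.15 (adjusted p = 0.0481). Over the 4 times FGFR1OP2 was not called (F test, adjusted p = 0.0961). FGF14 passed in no comparison.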
